A study of Mus musculus with 12 samples.

Results

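The TCP1 ring chaperonin, also called TRiC or CCT, was followed through its 8 subunit genes, Tcp1, Cct2, Cct3, Cct4, Cct5, Cct6a, Cct7 and Cct8, in mouse embryonic fibroblasts, connective tissue cells cultured from embryos. The genes were chosen by name, with earlier results of these data known. All 8 were found among the 49315 genes in the count tables and passed the filter on low counts. Each group comprised 3 RNA sequencing libraries of cells treated for 24 h with Torin1 (250 nM), RapaLink-1 (10 nM), rapamycin (20 ng/ml) or DMSO, the solvent control, 12 libraries in all. The labels give neither a genotype nor a mouse strain. Nor do they name separate cultures behind the 3 libraries of a treatment, so the spread that p-values rest on here may be technical. All cells were grown in DMEM with 10% fetal serum.

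The chaperonin is a pair of stacked rings, each built of 8 different but related proteins, and its chamber closes over an unfolded protein when ATP is used. Actin and tubulin are its classical clients, and Raptor and mLST8, which sit in mTOR complex 1, also depend on it. Every position in the ring is held by its own gene product, in the neighbour order TCP1, CCT4, CCT2, CCT5, CCT7, CCT8, CCT6, CCT3 worked out on the yeast and bovine complexes. In yeast the first 4 of these bind ATP more tightly than the last 4. mTOR is the kinase that all 3 compounds act on. Rapamycin binds FKBP12 and with it part of mTOR complex 1, Torin1 occupies the ATP site of the kinase in both mTOR complexes, and RapaLink-1 is a rapamycin-type molecule joined by a linker to an inhibitor of the ATP site.

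Levels are given as CPM, read counts scaled to library size with TMM factors, and thus as a share of each library. In RNA from whole cultures, fewer cells of a type and less RNA per cell cannot be told apart. Total counts were 30075870 to 39423703 per library. Summed CPM of 8 fibroblast markers was 12610 to 12780 with Torin1, 12720 to 12990 with RapaLink-1, 14550 to 14870 with rapamycin and 16890 to 17210 with DMSO, and its part in the results below was not tested. Among the 8, Col1a1 was at 3342 to 5621 CPM, Col1a2 at 3898 to 7110 and Vim at 2969 to 4767 over the 12 libraries. Lum, also in the list, was nearly absent, at 0.033 to 1.42 CPM. Of the 5 lists of markers of other cell types, none exceeded a summed 1.201 CPM in any library, and the 3 muscle markers were at 0.

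All 8 subunit messages were abundant, and what the compounds did to them differed from gene to gene. With rapamycin all 8 fell, by 0.41 to 0.63 on the log2 scale. With Torin1 and RapaLink-1 they spread apart: Cct3, Cct6a, Cct8 and Cct7 fell most, Tcp1 and Cct5 fell less, Cct2 differed least from DMSO, and Cct4 rose. Against DMSO, the quasi-likelihood test of edgeR (Benjamini-Hochberg adjustment) called 6 subunits lower and 1 higher with Torin1, 7 lower and 1 higher with RapaLink-1, and 8 lower with rapamycin. The background of these counts was wide. Of all 15917 genes tested, 78% were called with Torin1 (38.3% lower, 39.8% higher), 76.7% with RapaLink-1 (37.9% lower, 38.7% higher) and 59.7% with rapamycin (32.2% lower, 27.5% higher). The 3 comparisons share their DMSO libraries, so their values stand side by side and are not separate evidence.

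**Figure D1:**
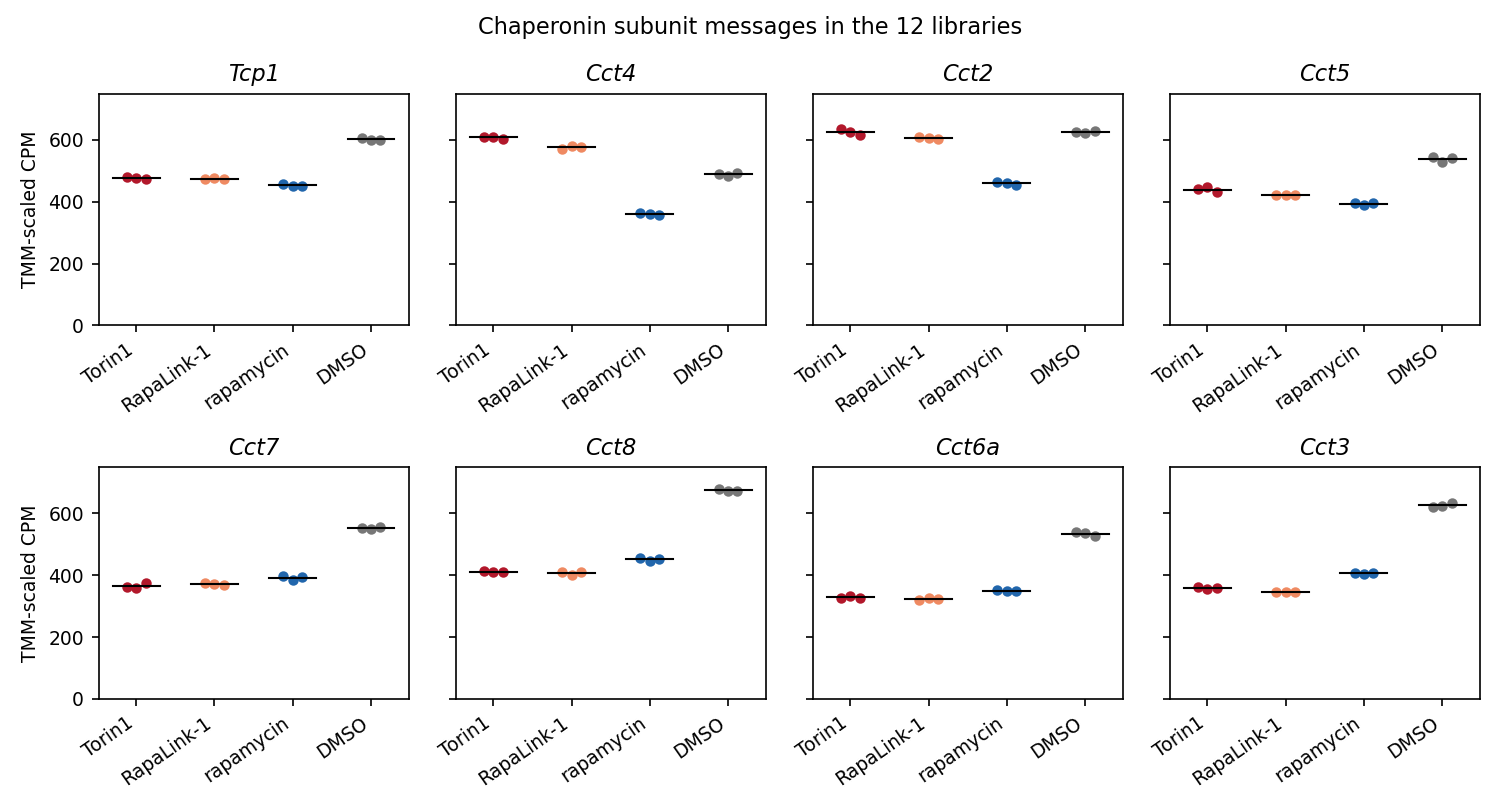
Level of each subunit message in the 12 libraries, in TMM-scaled CPM on an axis from 0. Points are libraries, bars are group means of 3, and panels run in the order of neighbours around the ring; Cct4 stands highest with Torin1 (604 to 610.3 CPM) and lowest with rapamycin (357 to 362 CPM).

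The promoters of 7 subunit genes, with 9 RefSeq starts (build GRCm38.p6), were read over the 250 bases before the start, and Cct4 had no entry. They are given as a description, and the start region of Cct4, the subunit that rose with Torin1 and RapaLink-1, could not be included. The string CCAAT, searched on both strands, stood before 4 of the 9 starts, those of 4 genes, a share near the 33.8% of all 32851 starts. Cct7 held 3 copies and Cct3 and Cct6a 2 each, and 2 or more copies occurred before 10.1% of all starts. Tcp1 held 1 copy. The string CCGGAAG, also searched on both strands, stood before Cct8 and before 1 of the 2 Cct2 starts, and before 6.91% of all starts. Capitals mark CCAAT or its complement ATTGG in the first 4 sequences, and CCGGAAG or its complement CTTCCGG in the last 2. Bases inside annotated exons were left out. The window of Tcp1 lies wholly within exons of Mrpl18 on the other strand. That of Cct6a lies wholly within annotated exons of Cct6a itself and of Psph on the other strand. For these genes, 30 bases around 1 copy are shown.
Cct7, chr6:85451284-85451504, plus strand: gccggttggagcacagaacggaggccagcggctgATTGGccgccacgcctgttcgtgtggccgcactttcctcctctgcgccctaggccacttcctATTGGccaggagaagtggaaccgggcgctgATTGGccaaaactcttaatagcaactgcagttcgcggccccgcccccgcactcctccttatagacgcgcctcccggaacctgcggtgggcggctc
Cct3, chr3:88297000-88297115, plus strand: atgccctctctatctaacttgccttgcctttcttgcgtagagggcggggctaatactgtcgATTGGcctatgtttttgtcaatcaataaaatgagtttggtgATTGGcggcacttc
Cct6a, chr5:129787315-129787344, plus strand: gagggtcgccacCCAATggaggtgctctgt
Tcp1, chr17:12916185-12916214, plus strand: atccctggctcaCCAATcaccgcagacgtt
Cct8, chr16:87495874-87495998, minus strand: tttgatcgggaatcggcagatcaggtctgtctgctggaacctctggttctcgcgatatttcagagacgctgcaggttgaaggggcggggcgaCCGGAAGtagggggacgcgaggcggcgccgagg
Cct2, chr10:117063853-117064102, minus strand: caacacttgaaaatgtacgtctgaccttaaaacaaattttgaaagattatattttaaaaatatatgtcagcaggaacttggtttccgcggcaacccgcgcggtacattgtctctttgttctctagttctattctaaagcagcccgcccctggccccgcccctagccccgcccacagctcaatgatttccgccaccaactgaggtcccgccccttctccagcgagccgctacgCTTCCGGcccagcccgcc

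The strings CACGTG, GAANNTTC and TTCNNGAA stood on either strand before 0, 1 and 1 of the 9 starts, counts too small to set apart from 6.02%, 6.69% and 7.17% of all starts. GGGCGG, the core of GC boxes, stood before 8 of the 9 starts, against 32.7% of all. These are matches of letters in a fixed window. Cct2, Cct5 and Cct8 had no CCAAT in this window. Whether any of these strings has a part in the changes was not tested.

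Cct4 encodes the delta subunit, 1 of the positions where electron microscopy placed bound actin. Its message (ENSMUSG00000007739, chr11:22990519-23003780, plus strand, GRCm38) was at 609.9, 610.3 and 604 CPM with Torin1, 569, 581.5 and 576 CPM with RapaLink-1, 362, 361 and 357 CPM with rapamycin, and 490.2, 482 and 492 CPM with DMSO. Every Torin1 and RapaLink-1 library lay above every DMSO library and every rapamycin library below. Cct4 rose with Torin1 by 0.32 ± 0.02 on the log2 scale (SE; 24.5%) and with RapaLink-1 by 0.24 ± 0.02 (17.9%), and it fell with rapamycin by 0.44 ± 0.02. With TMM scaling it was the only subunit called in opposite directions by Torin1 or RapaLink-1 and by rapamycin, and its rise held in every setting run, with log2 values between 0.30 and 0.44 for Torin1 against DMSO and between 0.22 and 0.38 for RapaLink-1 against DMSO.

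Cct2, the beta subunit, takes the next place in the ring. It had 636, 626 and 615 CPM with Torin1, 609, 607 and 604 CPM with RapaLink-1, 462.5, 461 and 454 CPM with rapamycin, and 626, 623.5 and 628.5 CPM with DMSO. The Torin1 libraries lay on both sides of the DMSO libraries, the RapaLink-1 libraries lay just below them, and the rapamycin libraries lay far below. The Torin1 difference from DMSO was -0.00 ± 0.02 on the log2 scale (adjusted p = 0.938, edgeR quasi-likelihood, Benjamini-Hochberg). The RapaLink-1 difference was -0.05 ± 0.02 (adjusted p = 0.00581, edgeR quasi-likelihood, Benjamini-Hochberg). Both of these directions turned under upper-quartile scaling, to 0.13 for Torin1 and 0.09 for RapaLink-1, whereas the rapamycin difference of -0.45 ± 0.02 stayed between -0.46 and -0.36 in every setting run.

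Cct5, the epsilon subunit, and Tcp1, the alpha subunit that gave the complex its name, flank this stretch. Cct5 was at 440.1, 446 and 432 CPM with Torin1, 422.5, 422 and 423 CPM with RapaLink-1, 394.5, 388 and 396 CPM with rapamycin, and 543, 529 and 542 CPM with DMSO. Tcp1 was at 481, 475 and 474 CPM with Torin1, 472, 477 and 475 CPM with RapaLink-1, 458, 451 and 449.5 CPM with rapamycin, and 606, 599 and 599.6 CPM with DMSO. In both genes the libraries of each compound lay below all DMSO libraries, and the rapamycin libraries were lowest. Cct5 fell by 0.29, 0.35 and 0.45 on the log2 scale with Torin1, RapaLink-1 and rapamycin, and Tcp1 by 0.34, 0.34 and 0.41, each with an SE of 0.02.

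Cct7, the eta subunit, opens the other side of the ring. It was at 363, 359.7 and 375 CPM with Torin1, 374, 373 and 369.6 CPM with RapaLink-1, 398, 385 and 394 CPM with rapamycin, and 552, 551 and 557 CPM with DMSO. Cct8, the theta subunit, whose raised expression promotes assembly of the complex in worms and human stem cells, was at 412, 411 and 410.2 CPM with Torin1, 410.1, 400.5 and 409.7 CPM with RapaLink-1, 456, 446 and 454 CPM with rapamycin, and 679, 673 and 672 CPM with DMSO. Here the rapamycin libraries were nearest to DMSO, whereas in Cct5 and Tcp1 they were farthest from it. Cct7 fell by 0.60 with Torin1, 0.57 with RapaLink-1 and 0.50 with rapamycin on the log2 scale, and Cct8 by 0.71, 0.73 and 0.58.

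Cct6a and Cct3 encode the zeta and gamma subunits, which are neighbours in the ring. Cct6a was at 327.5, 333 and 325 CPM with Torin1, 321, 325 and 322 CPM with RapaLink-1, 354, 348 and 349 CPM with rapamycin, and 539, 537 and 527 CPM with DMSO. Cct3 (ENSMUSG00000001416, chr3:88297116-88321767, plus strand, GRCm38) was at 361.5, 356 and 359 CPM with Torin1, 345, 347 and 346 CPM with RapaLink-1, 408, 403 and 408 CPM with rapamycin, and 622, 625 and 635 CPM with DMSO. Both genes were lower in every treated library than in any DMSO library. Cct6a fell by 0.70, 0.73 and 0.61 on the log2 scale with Torin1, RapaLink-1 and rapamycin. Cct3 had the largest fall of the 8 with each compound, by 0.81 ± 0.02 with Torin1, 0.86 ± 0.02 with RapaLink-1 and 0.63 ± 0.02 with rapamycin, percent changes of -42.8, -44.9 and -35.2 in the same order.

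**Figure D2:**
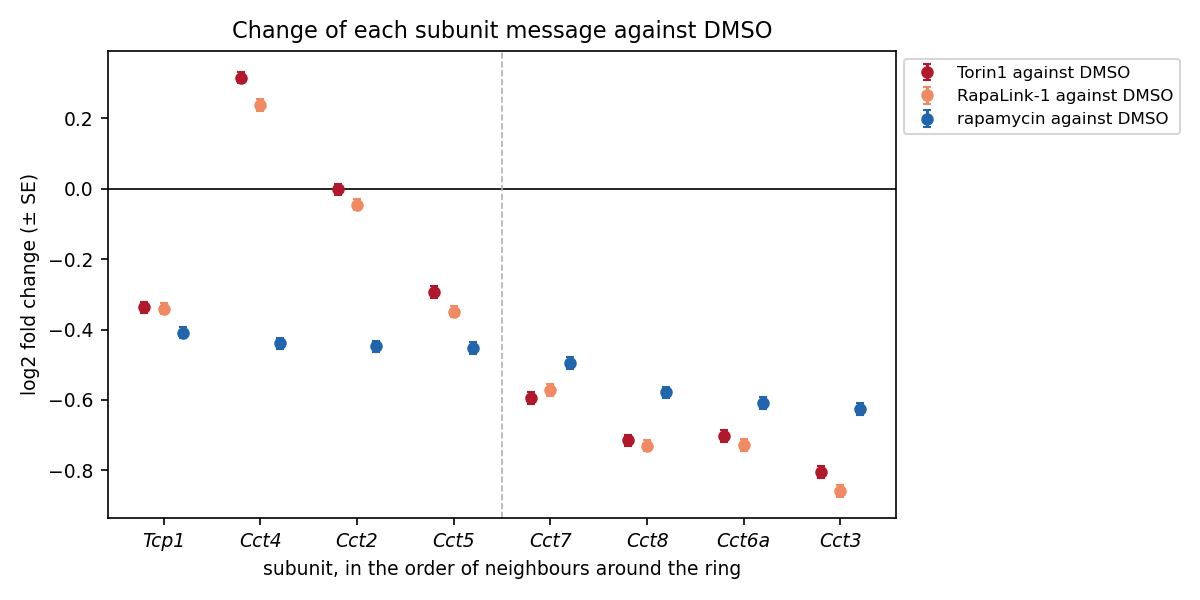
Log2 fold change of each subunit message against DMSO, with its standard error, in the order of neighbours around the ring; the dashed line separates the side that binds ATP more tightly (left) from the other. The rapamycin values lie between -0.63 and -0.41, while those of Torin1 run from -0.81 to 0.32 and those of RapaLink-1 from -0.86 to 0.24. The line was drawn after the subunit values had been seen.

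The 3 compounds thus had nearly the same median over the 8 subunits and a different spread. The median log2 change was -0.47 with Torin1, -0.46 with RapaLink-1 and -0.47 with rapamycin, against medians over all genes tested of 0.04, 0.03 and 0.00. The SD among the 8 changes was 0.39 with Torin1, 0.38 with RapaLink-1 and 0.08 with rapamycin. All genes also spread more widely with the first 2 compounds: their quartiles were -0.40 and 0.53 with Torin1, -0.39 and 0.48 with RapaLink-1, and -0.20 and 0.26 with rapamycin. Libraries did not overlap with those of DMSO for 7 of 8 subunits with Torin1, against 78.5% of all genes. With RapaLink-1 and with rapamycin this held for 8 of 8, against 77.6% and 63% of all genes.

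Added up, the 8 messages came to 3631, 3618 and 3593 CPM with Torin1, 3522, 3533 and 3526 CPM with RapaLink-1, 3293, 3245 and 3262 CPM with rapamycin, and 4657, 4620 and 4653 CPM with DMSO. The sum was lowest with rapamycin, although Cct3, Cct6a, Cct7 and Cct8 were lower with the other compounds. Relative to DMSO the change in the mean was -22.2% with Torin1, -24.0% with RapaLink-1 and -29.7% with rapamycin. No libraries overlapped between groups in the sum, and each two-sided exact permutation test gave p = 0.1, the smallest that 3 libraries against 3 allow.

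Torin1 and RapaLink-1, which both reach the kinase's ATP site, were next set against rapamycin, a comparison of treatments at these doses, which are not matched and for rapamycin are given by mass. With Torin1, all 8 subunits were called, 4 higher and 4 lower, where 67.5% of all genes were called, 34.2% higher and 33.2% lower. Cct4 was higher by 0.76 ± 0.02 on the log2 scale, Cct2 by 0.45, Cct5 by 0.16 and Tcp1 by 0.07. Cct3 was lower by a log2 difference of -0.18 ± 0.02, Cct8 by -0.14, Cct7 by -0.10 and Cct6a by -0.09. The comparison of RapaLink-1 with rapamycin uses the same rapamycin libraries, so it is not separate evidence. In it, 4 were called higher and 4 lower, where 65% of all genes were called, 32% higher and 33% lower. The values were 0.68 for Cct4, 0.40 for Cct2, 0.10 for Cct5, 0.07 for Tcp1, -0.23 for Cct3, -0.15 for Cct8, -0.12 for Cct6a and -0.08 for Cct7. The largest adjusted p among these 16 differences was 8.91e-05, for Tcp1 with RapaLink-1, from the edgeR quasi-likelihood fit with Benjamini-Hochberg adjustment. The small differences depended on the scaling: with upper-quartile factors Cct7 was no longer called with either compound nor Cct6a with Torin1 (log2 -0.04 and -0.00 for Cct7 with Torin1 and RapaLink-1, -0.03 for Cct6a), and with library totals alone Tcp1 was no longer called with Torin1 (0.03). Cct2, Cct3, Cct4, Cct5 and Cct8 were called in the same direction in every setting. Libraries did not overlap for 8 of 8 subunits in either comparison, as was so for 69.2% of all genes with Torin1 against rapamycin and for 67.4% with RapaLink-1 against rapamycin.

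**Figure D3:**
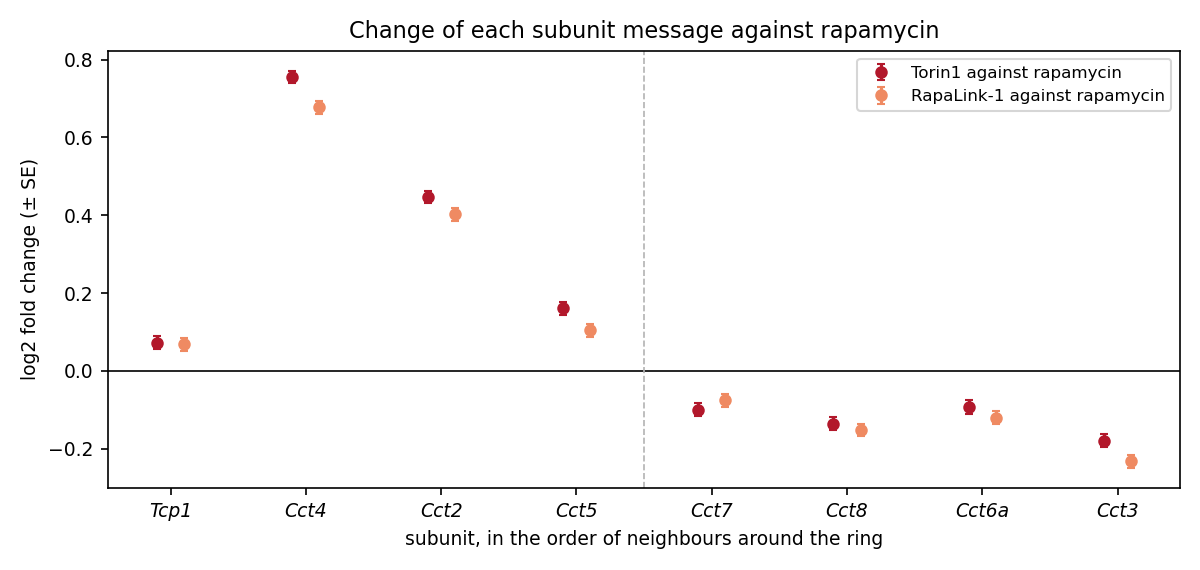
Log2 fold change of each subunit message with Torin1 and with RapaLink-1, both against rapamycin, with standard errors, in ring order. The 4 subunits left of the dashed line lie above 0 (0.07 to 0.76) and the 4 right of it lie below 0 (-0.23 to -0.08). Both comparisons use the same rapamycin libraries and are not separate evidence. The line was drawn after the subunit values had been seen, and calls of Cct7, Cct6a and Tcp1 depended on the scaling.

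RapaLink-1 and Torin1 differed little. Against Torin1, RapaLink-1 had 4 subunits called lower and none higher, where 33.2% of all genes were called, 16.4% lower and 16.7% higher. Libraries of 6 subunits did not overlap, against 42.2% of all genes. The called differences were -0.08 for Cct4, -0.06 for Cct5, -0.05 for Cct3 and -0.04 for Cct2 on the log2 scale, with an SE of 0.02 each. The other 4 differences were -0.03 for Cct6a, -0.02 for Cct8, -0.00 for Tcp1 and 0.02 for Cct7, which missed the threshold. The Cct2 call was also lost with DESeq2 size factors, upper-quartile factors, library totals, no filter on low counts and DESeq2's Wald test (adjusted p 0.0541 to 0.773), and in 5 of the 6 fits that left out a library. The Cct3 and Cct5 calls were lost with library totals, and in 3 and 1 of those 6 fits. Cct7 was called higher with library totals and without Torin1 replicate 3. The Cct4 call held in every setting run. With library totals alone only 2 subunits were called, 1 in each direction, and leaving out 1 library gave 2 to 5, with 2 when Torin1 replicate 1, Torin1 replicate 2, RapaLink-1 replicate 1 or RapaLink-1 replicate 3 was left out.

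Levels of different subunits were compared per kilobase of 1 transcript, the principal one in GENCODE M21 or, for Cct6a, the longest. With Torin1 the order was Cct2 (319 CPM per kb), Cct4 (245), Cct5 (237), Tcp1 (195), Cct3 (181.5), Cct8 (172), Cct7 (150) and Cct6a (134), and no neighbours in it overlapped. RapaLink-1 gave the same order, from 309.7 for Cct2 to 131 for Cct6a CPM per kb. With rapamycin Cct2 (234) was again first and Cct6a (143) last, with Cct4 (145) overlapping Cct6a, and Cct8 (189) overlapping Tcp1 (185). With DMSO Cct2 (319.6) and Cct3 (317) led and overlapped, followed by Cct5 (290.4), Cct8 (282), Tcp1 (246), Cct7 (227), Cct6a (218) and Cct4 (196.5). On this scale Cct4 held the second place with Torin1 and RapaLink-1 and the last with DMSO. The highest level was 2.39 times the lowest with Torin1, 2.36 times with RapaLink-1, 1.64 times with rapamycin and 1.63 times with DMSO.

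The lengths matter for this order, since the exonic lengths in the count tables run from 1962 bases for Cct2 to 6778 for Cct7 and include isoforms that may not be made in these cells. With those lengths Cct2 made up 27.7% of the summed length-scaled counts of the 8 genes on average over the 12 libraries, and Cct7 5.79%. Cct4 then held the third place with Torin1 and RapaLink-1 and the sixth with rapamycin and DMSO, and the highest level was 5.90 times the lowest with Torin1, 5.70 times with RapaLink-1, 4.04 times with rapamycin and 3.91 times with DMSO. With 1 transcript each, Cct2 made up 17.5% and Cct6a, the lowest, 9.13%. Comparisons of a gene between treatments do not use its length.

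Counts of some subunits may include reads of other genes, because the strand setting used in counting is not given in the sources used here. Exons of other genes overlapped 16.9% of the exonic bases of Tcp1 and 15.3% of those of Cct6a, 6.22% of Cct8 and 3.16% of Cct7, and none of Cct2, Cct3, Cct4 and Cct5. Psph, a serine synthesis enzyme read from the other strand beside Cct6a, was at 9.22 CPM with Torin1, 9.35 CPM with RapaLink-1, 16.4 CPM with rapamycin and 29.7 CPM with DMSO. Mrpl18, a mitochondrial ribosomal protein gene beside Tcp1, was at 34.1, 33.9, 51.2 and 72.8 CPM in the same groups. Both had far fewer counts than the subunit beside them, and the values of Tcp1 and Cct6a are given as uncertain. Stretches of 50 bases shared with other genes, among them Acat2 and Acat3 for Tcp1, made up 13.9% of Tcp1 and 15.4% of Cct6a. They were searched on both strands. Those of Acat3 and Psph, whose exons overlap Tcp1 and Cct6a on the other strand, may be bases already counted in the overlap above. Acat2, an acetyl-CoA acetyltransferase, was at 54.5 CPM with Torin1, 48.5 CPM with RapaLink-1, 119.5 CPM with rapamycin and 163 CPM with DMSO. Those are log2 changes of -1.58, -1.75 and -0.45. Acat3, which shares more of Tcp1 (10.2%, against 5.6% for Acat2), went the other way and was called higher with each compound. Acat3 was at 2.729 CPM with Torin1, 2.448 CPM with RapaLink-1, 1.506 CPM with rapamycin and 1.055 CPM with DMSO. Its rapamycin libraries overlapped those of DMSO. The part of either gene in the Tcp1 values was not tested. Cct6a is also annotated as a processed transcript in this release.

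Beside 6 of the subunit genes, a gene on the other strand starts within 1000 bases. Psph started 451 bases from Cct6a, Mrpl18 644 from Tcp1, Pradc1 456 from Cct7, B130034C11Rik 126 from Cct8, Tsacc 117 from Cct3 and Fam173b 48 from Cct5. With Torin1 against DMSO the partners of Cct6a, Tcp1, Cct7 and Cct5 were called lower in edgeR's quasi-likelihood test, by log2 differences of -1.69 for Psph, -1.10 for Mrpl18, -1.38 for Pradc1 and -0.12 for Fam173b. Tsacc and B130034C11Rik, partners of Cct3 and Cct8, were called higher by 1.11 and 1.30, at 2.00 and 1.96 CPM with Torin1 and 0.91 and 0.79 CPM with DMSO. Of all genes tested, 38.3% were called lower and 39.8% higher in this comparison. With RapaLink-1 the partners were called in the same directions. With rapamycin Psph, Mrpl18 and Pradc1 were called lower, and Tsacc, Fam173b and B130034C11Rik were not called. With Torin1, partners thus moved with their subunit in some of these arrangements and against it in others. Reads shared between the strands were not separated.

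The helpers of the chaperonin were taken next, from lists of genes that work with it, resemble it or are folded by it. Prefoldin, the complex of 6 subunits that hands actin and tubulin to the ring, had 5 members called lower and 1 higher with Torin1, and 4 lower and 1 higher with RapaLink-1 and with rapamycin. Its median log2 changes were -0.30, -0.32 and -0.16 in that order. Of all genes tested, 38.3%, 37.9% and 32.2% were called lower and 39.8%, 38.7% and 27.5% higher in the same order. Vbp1 was at 57.2 ± 2.1 CPM with Torin1, 56.4 ± 1.8 with RapaLink-1, 81.4 ± 1.3 with rapamycin and 99.3 CPM with DMSO, log2 changes of -0.79, -0.81 and -0.29. Pfdn6 changed by -0.70, -0.76 and -0.21. Pfdn5, a prefoldin subunit also known to bind Myc, rose by 0.56, 0.47 and 0.26, so within prefoldin, as within the ring, 1 message went up with Torin1 and RapaLink-1 while others went down.

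Of the phosducin-like proteins, which bind the chaperonin as cofactors, 3 of 4 were tested. Torin1 gave 1 called higher and 1 lower, RapaLink-1 gave 1 lower, and rapamycin gave 3 lower. These counts depended on the scaling: with upper-quartile factors rapamycin gave 0 and RapaLink-1 gave 2 higher and 1 lower, and with library totals rapamycin gave 0 and RapaLink-1 gave 1 of each. Pdcl, which helps the ring fold the beta subunit of G proteins, changed by -0.32, -0.24 and -0.09 on the log2 scale. Of the 7 genes of the URI prefoldin-like complex and the R2TP cochaperone, 4 were called lower and 1 higher with each compound. Beside the counts of both lists, 78% of all genes tested were called with Torin1, 76.7% with RapaLink-1 and 59.7% with rapamycin. Ruvbl1 and Ruvbl2, the ATPases of R2TP, changed by -0.74 and -0.88 with Torin1, -0.77 and -0.93 with RapaLink-1, and -0.51 and -0.51 with rapamycin, where Ruvbl1 shares 49.4% of its 50-base stretches with a pseudogene and is uncertain. Pdrg1 was the member that rose, by 0.64, 0.51 and 0.20.

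Tubulin folding cofactors, which take over tubulin after the ring, showed 2 of 6 higher and 2 lower with Torin1, 1 higher and 4 lower with RapaLink-1, and 2 higher and 2 lower with rapamycin. Over all genes tested, 78% were called with Torin1, 76.7% with RapaLink-1 and 59.7% with rapamycin. With library totals the cofactors called with RapaLink-1 were 1 higher and 2 lower, and with rapamycin 2 higher and 0 lower. Tbcb had the clearest change, -0.57, -0.70 and -0.17. Of 7 relatives of the ring, 6 were tested. With Torin1 and with RapaLink-1, 2 were called higher and 3 lower, and with rapamycin 1 higher and 2 lower. Among them, the mitochondrial chaperonin Hspd1 and its lid Hspe1 were called lower with every compound. Hspd1 was at 489 ± 7.9 CPM with Torin1, 491 ± 2.5 with RapaLink-1, 543 ± 7.3 with rapamycin and 1005 CPM with DMSO. That is a log2 change of -1.04, -1.03 and -0.89, beyond that of Cct3, in a gene that shares 42.1% of its 50-base stretches with other genes, so that its count is uncertain. Hspe1 changed by -0.59, -0.62 and -0.71. The chaperonin-like Bardet-Biedl gene Bbs12 was higher with Torin1 and RapaLink-1 (0.34 and 0.26). Mkks, of the same kind, lay lower in every library of these compounds (27.7 to 32.1 CPM) than with DMSO (35.3 to 36.4 CPM). It shares 27.3% of its 50-base stretches with other genes.

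Of 21 genes whose proteins are folded by the ring, 17 were called lower and 3 higher with Torin1, 17 lower and 2 higher with RapaLink-1, and 15 lower and 4 higher with rapamycin. Median log2 changes were -0.56, -0.43 and -0.15. Over all genes tested, the shares called lower were 38.3%, 37.9% and 32.2%, and those called higher 39.8%, 38.7% and 27.5%. Smooth muscle actin, Acta2, had the largest rise of the list with each compound. It was at 5666 ± 55.9 CPM with Torin1, 3446 ± 11.5 with RapaLink-1, 2424 ± 35.3 with rapamycin and 1675 CPM with DMSO, log2 rises of 1.76, 1.04 and 0.53. Tubb4b, a beta tubulin, fell by 1.40 with Torin1 and 1.10 with RapaLink-1. Cdc20, the mitotic activator of the anaphase-promoting complex, fell by 1.62, 1.44 and 0.33, and Ccne1, cyclin E, changed by -2.44, -2.24 and -0.38, its values with Torin1 and rapamycin being added after they had been seen. Several tubulin genes share long stretches with their paralogs and pseudogenes, and their separate counts are uncertain.

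Of 13 cytosolic heat shock genes, 12 were called lower and 1 higher with Torin1, 11 lower and 1 higher with RapaLink-1, and 12 lower and none higher with rapamycin. Their median log2 changes were -0.54, -0.59 and -0.44. The shares of all genes tested that were called lower were 38.3%, 37.9% and 32.2%, and higher 39.8%, 38.7% and 27.5%. Hsph1, Hspa4, Hsp90aa1 and Stip1 changed by -1.26, -1.10, -1.01 and -0.97 with Torin1, and Hsp90aa1, with 47.5% of its 50-base stretches shared, is uncertain. Hspa8, the constitutive Hsp70 that passes proteins on to the ring, was the member that rose, and it was singled out after its values had been seen. It was at 2309, 2288 and 2289 CPM with Torin1, 2362, 2340 and 2341 CPM with RapaLink-1, 1386, 1387 and 1375 CPM with rapamycin, and 1842, 1837 and 1794 CPM with DMSO. Its log2 changes of 0.33, 0.36 and -0.40 have the signs of those of Cct4. Hspa8 shares 39.4% of its 50-base stretches with other genes, mostly pseudogenes, so its count is uncertain.

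**Figure D4:**
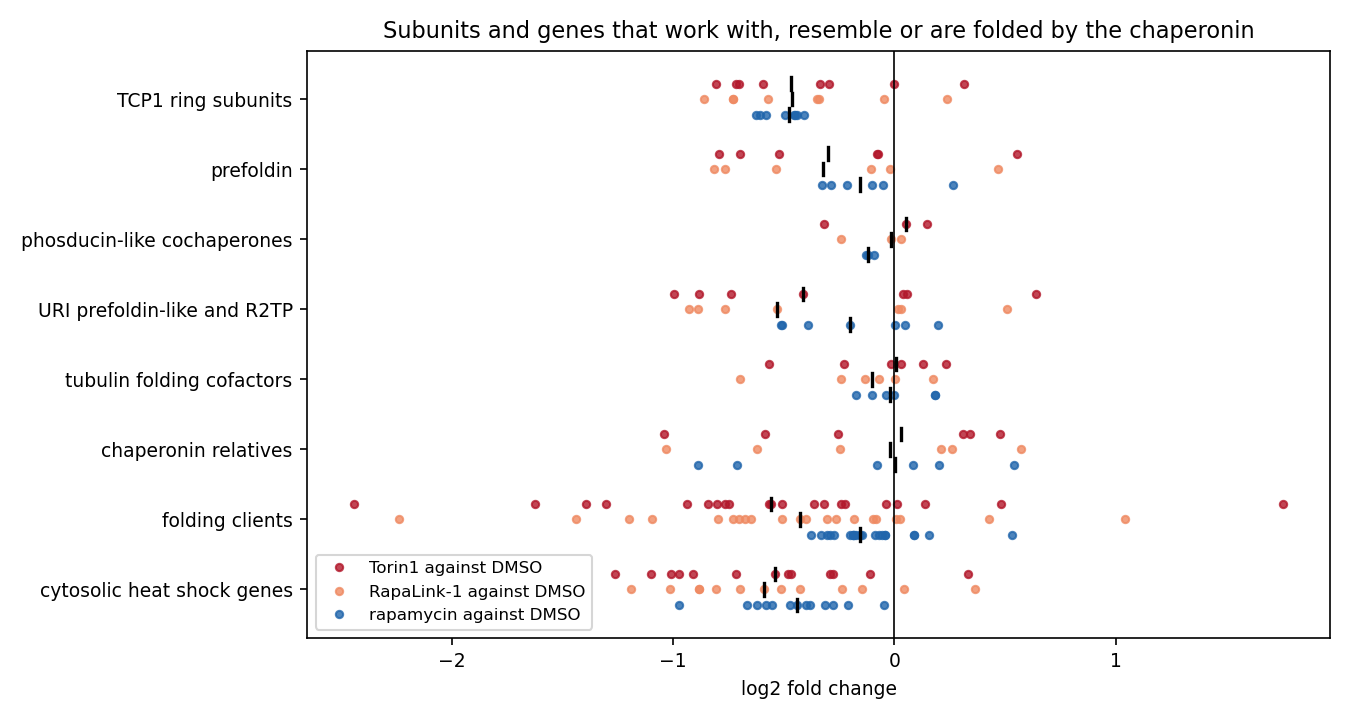
Log2 fold changes against DMSO of the 8 subunits and of 7 lists of related genes, with 1 point per tested gene and a black bar at each list's median. The rapamycin points of the 8 subunits lie close together (-0.63 to -0.41), those of Torin1 run from -0.81 to 0.32, and Acta2 stands furthest right among the clients at 1.76.

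The genes most like the subunits were sought by the root mean square difference of log2 CPM over the 12 libraries, each profile centred on its own mean, from the mean profile of the 8 subunits. Of 9180 genes averaging 10 CPM or more, the nearest were Rsl1d1 (0.02), Nsun2 (0.03), Nol9 (0.03), Ppid (0.03), Ipo5 (0.03) and Eef1d (0.03), where the median gene was at 0.24. Rsl1d1 and Nol9 are nucleolar proteins, Nsun2 methylates tRNA, Ppid is a cyclophilin that works with Hsp90, Ipo5 is an importin and Eef1d is part of an elongation factor. Their log2 changes were -0.42 to -0.35 with Torin1, -0.43 to -0.37 with RapaLink-1 and -0.53 to -0.46 with rapamycin. These 6 genes were picked for the smallest distance, so their closeness and their similar log2 changes follow from the choice. Tcp1 and Cct5, which are themselves part of that mean and were not picked by distance, lay at 0.04 each. Cct7 lay at 0.09, Cct6a at 0.13, Cct8 at 0.14, Cct2 at 0.18, Cct3 at 0.19 and Cct4 at 0.33.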

How the data were processed

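RNA of mouse embryonic fibroblasts was sequenced in 12 libraries, 3 per treatment label. Per the labels' protocols, total RNA was column-purified and libraries were made with an NEBNext Ultra kit. The deposited values are whole-number read counts per gene, made by the authors with featureCounts, per the file headers; the submitters' processing notes name Trimmomatic 0.36, STAR 2.5.2b, Subread 1.5.2, DESeq2 and GRCm38. The sources used here do not give strand or multiple-mapping settings. Gene symbols came from GENCODE M21, and 345 of 49315 IDs had none.

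Counts were fitted with edgeR 4.0.16 in R 4.3.3 (filterByExpr, 15917 genes, TMM, robust quasi-likelihood, group as the only term, 8 residual degrees of freedom). All 6 pairs of groups were tested on both sides, with Benjamini-Hochberg adjustment over all genes and calls at 0.05. The fit was checked on simulated counts. Chi-square over its degrees of freedom between replicates was 1.33 to 1.99, so no library looked deposited more than once. Alternatives covered scaling, filters, DESeq2 1.42.0, the libraries fitted and the replicate number. Of the related lists, at most 4 genes per list and comparison were named, those with the smallest p, plus Hspa8. Promoters were RefSeq, and motifs were searched by letters. The members, lists and ring order were chosen with earlier results of these data known, and the alternative using the length of 1 transcript was added after seeing the data.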

Additional observations from a re-analysis of the deposited data

How the results depend on the processing

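In the comparisons with DMSO and with rapamycin, the counts of subunits called stayed within 1.5 times under every alternative run. Of 112 subunit values under alternatives in each comparison, 107 with Torin1, 109 with RapaLink-1 and 112 with rapamycin against DMSO kept their direction and their side of the threshold, as did 109 of Torin1 against rapamycin, 111 of RapaLink-1 against rapamycin and 84 of RapaLink-1 against Torin1. Against rapamycin no single subunit turned direction, and against DMSO only Cct2 did. Cct2 with Torin1 turned to 0.13 with upper-quartile factors, 0.037 with library totals, 0.090 with a mean of at least 5 CPM, 0.0020 with only the groups compared and 0.0035 without Torin1 replicate 3 (-0.021 to 0.0035 with a library left out). Cct2 with RapaLink-1 turned to 0.092, 0.030 and 0.040 under the first 3 of these. Upper-quartile scaling moved the median of all genes by 0.13, 0.14 and 0.06 (log2) with Torin1, RapaLink-1 and rapamycin, and with it 7640 genes were called higher and 4999 lower with Torin1, against 6332 and 6090 with TMM, 7629 and 4823 with RapaLink-1, against 6165 and 6036, and 5481 and 4061 with rapamycin, against 4381 and 5127.

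For RapaLink-1 against Torin1, 4 subunits were called, 2 with library totals, and 2 to 5 when a library was left out. Of all 15917 genes tested, 2659 were called higher and 2618 lower with TMM, and 3883 and 1951 with library totals. The log2 difference of the sum, -0.04, was 0.0018 with library totals. Tcp1 turned to 0.0053 with DESeq2 size factors, 0.0061 with upper-quartile factors, 0.032 with library totals, 0.0054 with DESeq2, and up to 0.0082 with a library left out (-0.0034 to 0.0082). With library totals Cct6a turned to 0.010 and Cct8 to 0.021, and Cct8 was at -0.015 to 0.0021 with a library left out. The cause was not tested.

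Phosducin-like genes called with RapaLink-1 numbered 3 with upper-quartile factors, 2 with library totals and 3 with at least 5 CPM, against 1. With rapamycin they numbered 0 with either scaling, against 3. Tubulin cofactors called with RapaLink-1 numbered 3 with library totals and 3 with at least 5 CPM, against 5, and with rapamycin 2 with library totals, against 4. Of all 15917 genes tested with library totals, 6954 were called higher and 5343 lower with RapaLink-1, and 5889 and 3759 with rapamycin. Of 10484 genes tested with at least 5 CPM, 4639 were called higher and 4555 lower with RapaLink-1. Mean shares in the summed counts without length scaling were 13.4% for Tcp1, 15.5% for Cct2, 11.4% for Cct3, 13.7% for Cct4, 11.9% for Cct5, 10.1% for Cct6a, 11.2% for Cct7 and 12.8% for Cct8. With the length of 1 transcript they were 12.1%, 17.5%, 12.8%, 12.2%, 14.3%, 9.13%, 10.1% and 11.9% in the same order.

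Samples with the same replicate number did not visibly deviate together (correlations -0.039 to 0.059). No pairing by number was seen, but with 3 libraries per group a weak one could be missed. With the replicate block, 7 subunits were called with Torin1, 8 with RapaLink-1 and 8 with rapamycin against DMSO, and the block changed no count of subunits or related genes called. Of all 15917 genes tested with the block, 6329 were called higher and 6085 lower with Torin1. The numbers were 6154 and 6030 with RapaLink-1, and 4382 and 5134 with rapamycin. Depth does not limit the subunits, each with 9814 to 25866 counts per library.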

Other observations

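The ring positions were looked at together after the subunit values had been seen, so what follows is a description with no test. The 4 subunits that bind ATP more tightly in yeast, Tcp1, Cct4, Cct2 and Cct5, are neighbours in the ring, as are the other 4, Cct7, Cct8, Cct6a and Cct3. Against rapamycin, all 4 of the first side were called higher and all 4 of the second side lower, both with Torin1 and with RapaLink-1. Both comparisons share their rapamycin libraries, so they are not separate evidence. Of all genes tested, 34.2% were called higher and 33.2% lower with Torin1 against rapamycin, and 32% and 33% with RapaLink-1. With upper-quartile factors Cct7 was no longer called with either compound nor Cct6a with Torin1, and with library totals Tcp1 was no longer called with Torin1. The first side made up 59.7%, 59.6% and 59.1% of the summed counts of the 8 genes with Torin1, 58.8%, 59.1% and 59.0% with RapaLink-1, 51.0%, 51.2% and 50.8% with rapamycin, and 48.6%, 48.4% and 48.6% with DMSO. Its summed level was 2149 ± 22.6 CPM with Torin1, 2080 ± 7.8 CPM with RapaLink-1, 1665 ± 10.9 CPM with rapamycin and 2254 ± 17.1 CPM with DMSO (SD, n = 3 each). The second side summed to 1465 ± 4.5 CPM with Torin1, 1447 ± 2.2 CPM with RapaLink-1, 1601 ± 16.6 CPM with rapamycin and 2390 ± 3.5 CPM with DMSO. Levels of message are not levels of protein, and whether the assembled ring differs was not measured.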
